A study of Mus musculus with 4 samples.

Results

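Prostaglandin synthesis and receptors were followed here through 9 genes of 39179 in the deposited gene table: Pla2g4a, Ptgs1, Ptgs2, Ptges, Ptgis, Ptgfr, Ptger2, Ptger4 and Hpgd. They were taken by their gene name in the table, where all 9 were found, and all 9 passed the filter on low reads. The cells were MEFs, fibroblasts cultured from mouse embryos, of the strain BALB/c. SON cells (2 libraries, I and II) were infected at passage 2 with lentivirus carrying Stella, Oct4 and Nanos2, factors of the germ line and early embryo, and GFP cells (2 libraries, I and II) with a control lentivirus of green fluorescent protein. Both groups shared the infection, 4 days of selection with puromycin at 2 µg/ml that began 72 h later, and 21 days of culture without it. The labels name neither the promoter that drives the delivered genes nor separate cultures or embryos for the libraries of a group, so a p-value here sets differences against the spread of library pairs that may be technical. The virus and the culture that followed it cannot be told apart from the group.

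Prostaglandins are lipid signals made on demand from arachidonic acid, a fatty acid held in membrane phospholipids. A phospholipase frees the acid, the cyclooxygenases (Ptgs1 and Ptgs2) turn it into a common precursor, and terminal synthases convert that precursor into individual prostaglandins, which act on G protein-coupled receptors at the cell surface before a dehydrogenase inactivates them. Fibroblasts are a known source of prostaglandin E2 and prostacyclin, and their Ptgs2 is known to be switched on by interleukin-1 and other signals of inflammation.

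The genes of the pathway did not move as 1 block. Ptgs2, the inducible cyclooxygenase, was the most abundant in both groups, with levels that overlapped. Ptgis, the prostacyclin synthase, was 1.69-fold higher in SON, and the receptors Ptgfr and Ptger2 were 4.73-fold and 4.41-fold lower in SON by the ratio of group means. The receptor Ptger4 was 1.54-fold higher in SON. Over all genes, limma (Benjamini-Hochberg adjusted p under 0.05) called 0 of the 9 higher or lower, where it called 0.0327% of 15283 tested genes higher and 0.0196% lower. At an unadjusted limma p under 0.05, 2 members were higher (Ptgis, Ptger4) and 4 lower (Pla2g4a, Ptgfr, Ptger2, Hpgd), against 5.99% of tested genes higher and 6.57% lower. The authors' deposited table, made with DESeq2, calls Ptgis higher and Ptgfr and Ptger2 lower, where it calls 1.48% of genes higher and 2.59% lower. DESeq2 on the recovered reads called the same 3 members (1.67% of genes higher, 2.7% lower), and edgeR called 0 of the 9 (0.0327% higher, 0.0196% lower). The groups did not overlap for 6 of the 9 members, 2 higher and 4 lower in SON. Hpgd, which is in both counts of 4 lower members, needed its GFP reads to pass the filter. Among all tested genes 22.2% lay wholly higher and 23.7% wholly lower, so the count on the higher side is near that share. The median log2 difference of the 9 members was -0.33, beside -0.01 over all tested genes.

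**Figure D1:**
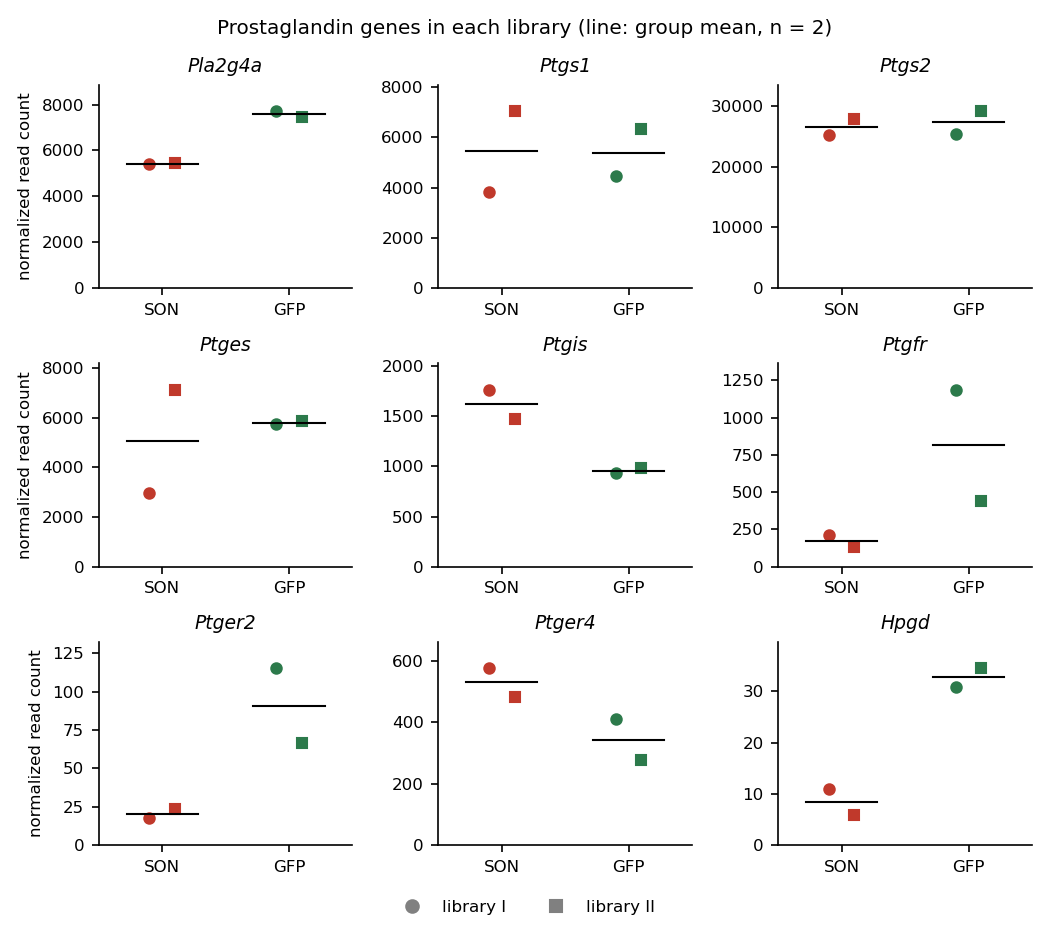
Normalized read count (vertical axis, from 0, a separate scale for each gene) of the 9 prostaglandin genes in SON and GFP libraries; circles are library I, squares library II, and lines are group means (n = 2). Ptgs2 lies between 25172.5 and 29197 in all 4 libraries, while both SON points lie below both GFP points for Pla2g4a, Ptgfr, Ptger2 and Hpgd and above them for Ptgis and Ptger4.

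The 4 libraries held between 14680865 and 37097571 reads in genes, the SON libraries 17365551 and 14680865 and the GFP libraries 28924700 and 37097571. Values are normalized read counts, that is reads divided by 1 size factor per library. The delivered genes were read as the labels state, with summed levels of 1151 and 1124 in SON I and II, against 0 and 1.19 in GFP I and II. All 10 fibroblast markers were read in every library. Their summed level was 463911 and 409253 in SON I and II, against 955294 and 480558 in GFP I and II, so GFP I stood apart from the other 3 libraries in this sum, which a few abundant genes lead. Of the 10 markers, 6 were lower in both SON libraries than in both GFP libraries and 3 were higher. Among all tested genes these shares were 23.7% and 22.2%. The median log2 difference of the 10 was -1.33. The authors' deposited table, which calls 2.59% of genes lower, calls 5 of the markers lower. Among them Lum had 1106 and 893 in SON I and II, against 32440.1 and 6050.1 in GFP I and II, and Dcn had 8693 and 10141.6 in SON, against 89486 and 35604.5 in GFP. The 8 smooth muscle markers summed to 428475 and 127249 in SON I and II, against 141590 and 157040 in GFP I and II, so SON I stood apart there. All 8 were tested, 7 had a positive log2 difference, and the median was 0.73. In both SON libraries 2 were higher, Myh11 and Actg2, where 22.2% of all tested genes lay wholly higher. Myh11 had 15017 and 2776 in SON, against 1714 and 2158 in GFP. It is the only 1 of the 8 that the authors' deposited table calls higher, where it calls 1.48% of genes. The 12 macrophage markers summed to 335 and 1090 in SON, against 1011 and 1282 in GFP. Of these 7 were tested, and 2 were lower in both SON libraries, where 23.7% of all tested genes lay wholly lower. Cd53 had 164 and 413 in SON, against 427 and 537 in GFP, and Lyz2 43.6 and 306, against 352 and 377. The other tested markers overlapped, such as Csf1r, with 73.6 and 98.4 in SON, against 94.4 and 161 in GFP. Cd68 had 39.5 and 198, against 79.3 and 110. The 8 endothelial markers summed to 545 and 435 in SON, against 230 and 319 in GFP. Of the 6 tested, 3 were higher in both SON libraries, where 22.2% of all tested genes lay wholly higher. The median log2 difference of the 6 was 0.97. Kdr had 139 and 138 in SON, against 37.6 and 77.3 in GFP. Ptprb had 278 and 173, against 103 and 125, and Tek 47.7 and 33.8, against 15.0 and 21.4. The other tested markers overlapped. Pecam1 had 10.9 and 22.0 in SON, against 20.9 and 13.1 in GFP. Emcn had 46.4 and 23.5, against 41.8 and 55.9, and Esam 17.7 and 35.3, against 7.52 and 19.0. Of the endothelial markers that did not pass the filter, Cdh5 had 5.45 and 8.81 in SON and 3.34 and 6.54 in GFP, and Cldn5 had 0 in both SON libraries and 0.835 and 0 in GFP. The 8 epithelial markers summed to 664 and 981 in SON, against 185 and 382 in GFP. Of these 3 were tested, and 2 were higher in both SON libraries, where 22.2% of all tested genes lay wholly higher. Dsp had 224 and 695 in SON, against 18.4 and 89.8 in GFP, and Krt19 295 and 197, against 90.2 and 120. Krt18 overlapped. The other 5 did not pass the filter, among them Krt8 with 6.82 and 2.94 in SON, against 8.35 and 11.9 in GFP. The 6 mast cell markers summed to 17.7 and 22.0 in SON, against 7.52 and 13.1 in GFP, and 0 of them passed the filter. In such bulk samples fewer cells of a type and less RNA per cell cannot be told apart. The part of these cell types in the results was not tested.

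Promoter sequence is shown for a choice of members: Ptgs2, whose groups overlapped, and the receptors Ptgfr, Ptger2 and Ptger4, which differed in opposite directions. No promoter window was available for Ptgis. Each run is the 250 bases before the annotated gene start, 5′ to 3′ on the strand of the gene, from RefSeq on GRCm38.p6: chr1:150099781-150100030 on the plus strand for Ptgs2, chr3:151837529-151837778 on the minus strand for Ptgfr, chr14:44987861-44988110 on the plus strand for Ptger2 and chr15:5244188-5244437 on the minus strand for Ptger4. The gene positions given below are those of GENCODE M21, and its starts differ from RefSeq for Ptgfr and Ptger2. The start of Ptgfr is base 151837528 in RefSeq and 151837630 in GENCODE, so its run reaches into the GENCODE gene. The start of Ptger2 is base 44988111 in RefSeq and 44988195 in GENCODE. Capitals mark matches to TTNNGNAA, a short form of the motif of C/EBP factors, on either strand.
Ptgs2: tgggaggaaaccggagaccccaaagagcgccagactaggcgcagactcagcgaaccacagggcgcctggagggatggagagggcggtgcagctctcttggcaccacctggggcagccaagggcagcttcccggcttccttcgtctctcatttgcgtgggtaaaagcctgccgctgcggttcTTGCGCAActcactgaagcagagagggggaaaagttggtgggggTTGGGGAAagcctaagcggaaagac
Ptgfr: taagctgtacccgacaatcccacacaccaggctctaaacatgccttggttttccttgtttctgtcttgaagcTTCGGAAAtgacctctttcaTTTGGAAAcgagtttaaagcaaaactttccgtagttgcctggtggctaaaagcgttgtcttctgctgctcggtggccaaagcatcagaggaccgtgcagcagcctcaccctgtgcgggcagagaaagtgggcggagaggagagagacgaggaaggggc
Ptger2: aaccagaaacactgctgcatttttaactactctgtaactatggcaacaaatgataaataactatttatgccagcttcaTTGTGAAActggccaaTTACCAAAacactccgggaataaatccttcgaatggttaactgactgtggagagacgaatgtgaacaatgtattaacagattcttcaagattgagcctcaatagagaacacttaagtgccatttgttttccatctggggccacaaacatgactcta
Ptger4: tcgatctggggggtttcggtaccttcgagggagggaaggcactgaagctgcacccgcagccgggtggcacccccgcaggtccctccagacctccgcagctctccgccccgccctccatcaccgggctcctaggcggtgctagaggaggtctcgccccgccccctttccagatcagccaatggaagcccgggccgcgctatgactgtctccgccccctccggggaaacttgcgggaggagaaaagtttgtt
In Ptgs2 the palindrome TTGCGCAA lies from base -69 to base -62 and a further match from -25 to -18. Ptgfr and Ptger2 each hold a pair of matches in the sequence shown, none of them overlapping another motif, and Ptger4 holds none. Of the members with a window not shown, Pla2g4a, Ptges and Hpgd also hold matches and Ptgs1 holds none. Over the whole promoter windows of 300 bases, which run to 50 bases past the start, TTNNGNAA occurs in 40.7% of the 32851 windows in the table, so a match is common. The other motifs searched on both strands were a pair of forms of the NF-kappaB motif, TGACGTCA (the cAMP response element), TGANTCA of AP-1, the interferon-stimulated response element, ATGCAAAT (the octamer read by Oct4) and TATAAA (the TATA box). None of them was found in the windows of these 4 genes, where variant forms of a motif and sites outside the windows were not searched. They occur in 1.63%, 1.75%, 1.79%, 7.81%, 3.44%, 1.74% and 13.6% of all windows, in that order.

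Pla2g4a encodes the cytosolic phospholipase A2 that frees arachidonic acid (chromosome 1, 149829618 to 149961290, GRCm38). It had 5419 and 5439.5 normalized counts in SON I and II, against 7717 and 7458 in GFP I and II. The SON libraries were both lower and nearly identical, and the groups did not overlap. The log2 difference was -0.48 ± 0.14 (SE, limma adjusted p = 0.302), and it stayed between -0.51 and -0.46 when each library was left out in turn. The authors' deposited table gives -0.47 with an adjusted p of 0.257.

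Ptgs2 (chromosome 1, 150100031 to 150108227), which follows Pla2g4a in the pathway, had 25172.5 and 27879 normalized counts in SON I and II, against 25448 and 29197 in GFP I and II. The groups overlapped, and the 2 library I values lay below the 2 library II values. Its mean was 26526 ± 1914 in SON and 27323 ± 2650.3 in GFP (SD, n = 2 each), a log2 difference of -0.04 ± 0.20 (SE, limma adjusted p = 0.959). Without any 1 library the difference lay between -0.14 and 0.06, so its sign is not fixed. The 3 tested genes whose log2 profile, centred on its mean, lay nearest to that of Ptgs2 over the 4 libraries were Exosc7, Polr3c and Becn1, at Euclidean distances of 0.0159, 0.0222 and 0.0233. A profile that is almost flat over 4 libraries has many neighbours.

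Ptgs1, the cyclooxygenase that most tissues make without a stimulus (chromosome 2, 36230426 to 36252272), had 3825 and 7044 normalized counts in SON I and II, against 4447 and 6336 in GFP I and II. Both library I values were low and both library II values high, and the GFP values lay between the SON values. The log2 difference was -0.03 ± 0.34 (SE, limma adjusted p = 0.981), and it turned to 0.41 without SON I and to 0.22 without GFP II. Ptges, the inducible synthase that makes prostaglandin E2 (chromosome 2, 30889471 to 30929863), had 2970 and 7123 in SON I and II, against 5735 and 5857 in GFP I and II. SON I was the lowest of the 4 libraries and SON II the highest, and the GFP libraries lay close together between them. Within SON, library I minus library II came to -1.26 on the log2 scale for Ptges and -0.88 for Ptgs1, where the median size of that difference over all tested genes was 0.30. The log2 difference of Ptges between groups was -0.33 ± 0.42 (SE, limma adjusted p = 0.793), and it was 0.30 without SON I and -0.96 without SON II. Without SON II, DESeq2 on the recovered reads called Ptges lower (log2 -0.97, adjusted p = 0.00528). SON I is also the library with the highest smooth muscle and the lowest macrophage marker sums given above.

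Ptgis, which makes prostacyclin (chromosome 2, 167191805 to 167240604), had 1766 and 1475 normalized counts in SON I and II, against 937 and 979.6 in GFP I and II. Both SON libraries were high and the groups did not overlap. The means were 1620.3 ± 206 in SON and 958 ± 30.1 in GFP (SD, n = 2 each), and the log2 difference of 0.75 ± 0.16 (SE, limma adjusted p = 0.249) stood at percentile 93.7 of all tested genes. The authors' deposited table gives 0.73 with an adjusted p of 0.0468, and DESeq2 on the recovered reads gave 0.77 with an adjusted p of 0.0219. That call was lost without SON I (DESeq2 adjusted p = 0.291), without GFP I (1.00) or without GFP II (0.551), at log2 differences of 0.65, 0.72 and 0.81, and it held without SON II (0.0465). Endothelial cells and smooth muscle cells are also known to make prostacyclin, and their marker sums are given above. Within a library, the ratio of Ptgis to Ptges normalized counts was 0.595 and 0.207 in SON I and II, against 0.163 and 0.167 in GFP I and II. Both SON ratios lay above both GFP ratios, SON II by little, and the pair was chosen after its values were seen.

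Of the receptors, Ptgfr binds prostaglandin F2-alpha (chromosome 3, 151796502 to 151837630). It had 210.0 and 134 normalized counts in SON I and II, against 1188 and 439 in GFP I and II. Both SON libraries were low, and GFP I was well above GFP II. The log2 difference was -2.10 ± 0.52 (SE, limma adjusted p = 0.27), at percentile 1.03 of all tested genes. The authors' deposited table calls Ptgfr lower, with -1.96 and an adjusted p of 6.08e-04, and DESeq2 on the recovered reads gave -2.23 with an adjusted p of 0.00102. Without GFP I the DESeq2 difference was -1.35 and no longer called (adjusted p = 0.701), and without GFP II it was -2.77 (adjusted p = 3.13e-06). The sum of the fibroblast markers parts the same GFP libraries, with 955294 in GFP I and 480558 in GFP II, and its part in this result was not tested. Ptgfr shares 329 of its 6778 exon bases with Gm43618 on the other strand, which was not analysed here.

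Ptger2, the EP2 receptor of prostaglandin E2, which raises cyclic AMP (chromosome 14, 44988195 to 45003820), was read 13 and 16 times in SON I and II, against 138 and 112 times in GFP I and II. This gave 17.7 and 23.5 normalized counts in SON, with exact Poisson 95% intervals of 9.44 to 30.3 and 13.4 to 38.2, against 115 and 66.6 in GFP, with intervals of 96.8 to 136 and 54.8 to 80.1. The groups did not overlap, and the SON intervals, which cover counting error only, end below the GFP intervals. The log2 difference was -2.05 ± 0.41 (SE, limma adjusted p = 0.249), and it lay between -2.44 and -1.66 without any 1 library. The authors' deposited table calls Ptger2 lower, with -1.80 and an adjusted p of 0.00828, and DESeq2 on the recovered reads gave -2.13 with an adjusted p of 0.0133. With any 1 library left out, DESeq2 no longer called it, at adjusted p-values of 0.25 without SON I, 0.0756 without SON II, 1.00 without GFP I and 0.203 without GFP II. The antisense genes Gm17173 and Gm49364 share 246 and 144 bases of the 5193 exon bases of Ptger2. Whether the reads carry a strand was not tested. If they do not, reads from these genes and from Ptger2 cannot be told apart in the shared bases. Gm17173 held 4.09 and 1.47 normalized counts in SON, against 10.02 and 4.16 in GFP, lower in SON like Ptger2. Gm49364 was not analysed here, and the part of both in this result was not tested.

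Ptger4, the EP4 receptor, also binds prostaglandin E2 and raises cyclic AMP (chromosome 15, 5206661 to 5244187). It had 575 and 483 normalized counts in SON I and II, against 409 and 278 in GFP I and II. Both SON libraries were above both GFP libraries, and the log2 difference was 0.64 ± 0.25 (SE, limma adjusted p = 0.398). The authors' deposited table does not call it (0.59, adjusted p = 0.425). In the 4 fits without 1 library the difference lay between 0.36 and 0.92. Ptger4 shares 1015 of its 6648 exon bases with Gm15937, a processed pseudogene that is at 0 in all 4 libraries, and 82 with Ttc33, a protein-coding gene at 386 and 489 in SON and 548 and 513 in GFP, both on the other strand. For the pair of receptors that share a ligand and a second messenger, the ratio of Ptger4 to Ptger2 normalized counts within a library was 32.5 and 20.6 in SON I and II, against 3.55 and 4.17 in GFP I and II. The ratio of Ptger4 to Ptgfr was 2.74 and 3.62 in SON, against 0.345 and 0.633 in GFP. Neither ratio overlapped between the groups, which follows from Ptger4 lying wholly higher and Ptger2 and Ptgfr wholly lower in SON and adds nothing to those values. Both were chosen after their values were seen and carry no test.

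Hpgd encodes the dehydrogenase that inactivates prostaglandins (chromosome 8, 56294585 to 56321043) and had the fewest reads of the 9 members. It was read 8 and 4 times in SON I and II, against 37 and 58 times in GFP I and II, or 10.9 and 5.88 normalized counts in SON, against 30.9 and 34.5 in GFP. The exact Poisson 95% intervals were 4.71 to 21.5 and 1.60 to 15.0 in SON, against 21.8 to 42.6 and 26.2 to 44.6 in GFP. Both SON values lay below both GFP values, and the nearest ends of their intervals were 21.5 in SON and 21.8 in GFP. Hpgd needed its GFP reads to pass the filter, so its place among the tested genes rests on the group where it is higher. The log2 difference was -1.89 ± 0.47 (SE, limma adjusted p = 0.27) with a pseudocount of 1 and -1.23 with a pseudocount of 10, and the authors' deposited table does not call it (-1.44, adjusted p = 0.18).

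**Figure D2:**
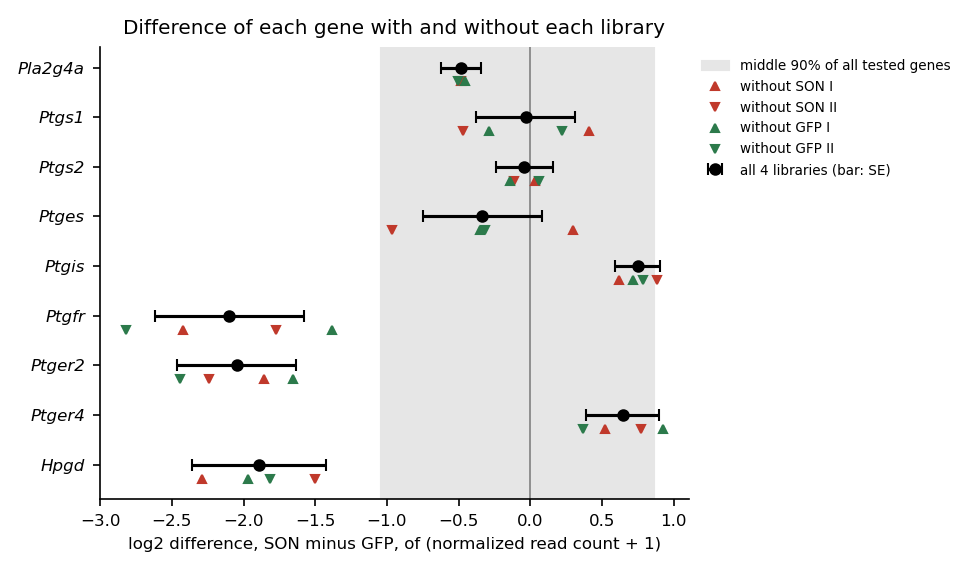
Log2 difference of SON minus GFP (horizontal axis, normalized read count + 1) for each gene with all 4 libraries (black, bar: SE) and without each library in turn (triangles), over a grey band from the 5th to the 95th percentile of all tested genes. Ptgfr, Ptger2 and Hpgd lie left of the band with every library set shown, while Ptgs1, Ptgs2 and Ptges cross 0 when a library is left out.

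Divided by exon length, Ptgs2 stood first and Ptgis last among the member synthesis enzymes in every library, and the order of Ptgs1, Ptges and Pla2g4a between them varied. Of the member receptors, Ptger4 and Ptgfr changed places between the groups, and Ptger2 was the lowest in both. Ptgs2 led with 5496 and 6087 normalized reads per kb in SON I and II, against 5556 and 6375 in GFP I and II. Next came Ptgs1 (985 and 1813 per kb in SON, 1145 and 1631 in GFP), Ptges (755 and 1812 per kb in SON, 1459 and 1489.9 in GFP) and Pla2g4a (848 and 851 per kb in SON, 1207 and 1167 in GFP). The range of Ptges overlapped those of both others in SON, where both Ptgs1 values lay above both Pla2g4a values. In GFP the range of Ptgs1 overlapped those of both others, and both Ptges values lay above both Pla2g4a values. Ptgis followed with 688 and 575 per kb in SON, against 365 and 382 in GFP. Among the receptors Ptger4 was above Ptgfr in SON (86.6 and 72.7 per kb, against 31.0 and 19.7 for Ptgfr), and Ptgfr was above Ptger4 in GFP (175 and 64.7 per kb, against 61.6 and 41.8 for Ptger4). At the low end stood Ptger2, with 3.41 and 4.53 per kb in SON and 22.2 and 12.8 in GFP, and Hpgd, with 6.48 and 3.49 per kb in SON and 18.4 and 20.5 in GFP. The ranges of this last pair overlapped in both groups.

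All 9 prostanoid receptors of the mouse are in the table, 3 of them members, and 7 passed the filter. Of these 7, limma called 0, and edgeR on the recovered reads called 0. At an unadjusted limma p under 0.05, 1 was higher and 3 lower, against 5.99% and 6.57% of all tested genes. The authors' deposited table calls 3 lower, where it calls 2.59% of genes, and Ptgfr and Ptger2, counted above, are among these. The third is Ptgir, the receptor of prostacyclin, the product of Ptgis. It had 102 and 66.1 normalized counts in SON I and II, against 444 and 281 in GFP I and II, a log2 difference of -2.09 ± 0.35 (SE, limma adjusted p = 0.23). In the authors' deposited table its adjusted p is 4.24e-05. The gene of the prostacyclin synthase was thus higher in SON and that of the prostacyclin receptor lower, in both libraries of each group. Tbxa2r, the thromboxane receptor, had 105 and 54.4 in SON, against 184 and 110.0 in GFP (limma adjusted p = 0.485). Ptger1, the EP1 receptor, had 330.0 and 361 in SON, against 304 and 261 in GFP. Ptger3 was near its floor, with 13.6 and 1.47 in SON and 11.7 and 7.73 in GFP, where 3 reads equal 4.09 and 4.41 normalized counts in SON I and II. The receptors of prostaglandin D2, Ptgdr and Ptgdr2 (named Gpr44 in the table), did not pass the filter.

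**Figure D3:**
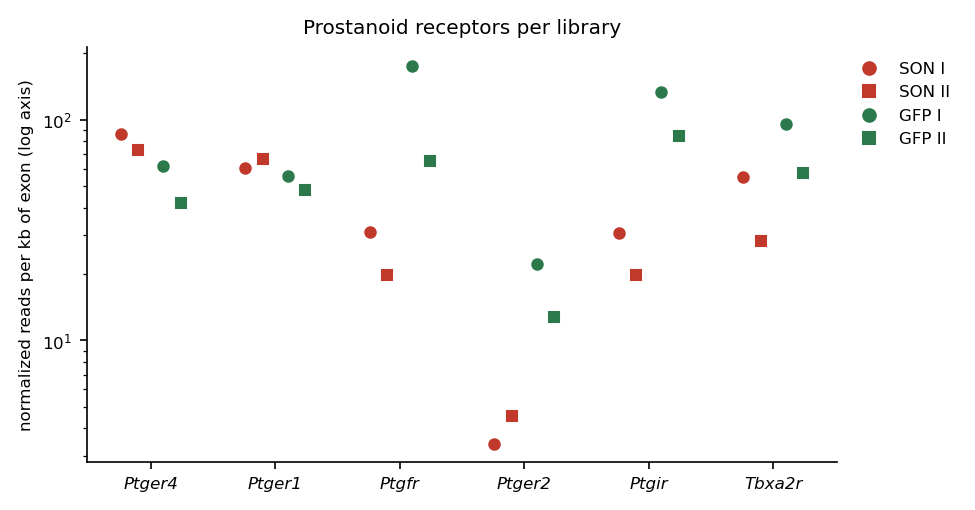
Normalized reads per kb of exon (vertical axis, log scale) of 6 prostanoid receptors in each library; red is SON, green is GFP, circles are library I and squares library II. Ptgfr, Ptger2, Ptgir and Tbxa2r lie lower in both SON libraries than in both GFP libraries, and Ptger4 and Ptger1 lie higher. Ptger3, the other tested receptor, overlapped between the groups and is not shown. Among all tested genes 22.2% lay wholly higher and 23.7% wholly lower in SON.

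No call was made among the remaining terminal synthases. Of 9 other synthases and reductases, 7 passed the filter, limma called 0 of them (0 at an unadjusted p under 0.05), the authors' deposited table calls 0, and their median log2 difference was -0.13. Ptges2 and Ptges3, further prostaglandin E synthases, had 498 and 511 in SON against 518 and 493 in GFP, and 2493 and 2436 in SON against 2542 and 2843 in GFP. Tbxas1, the thromboxane synthase, had 20.5 and 4.41 in SON, against 10.02 and 14.9 in GFP. Ptgds, a synthase of prostaglandin D2, had 0 in both SON libraries and 1.67 and 1.19 in GFP, and Hpgds, the other, had 4.09 and 5.88 in SON and 4.18 and 5.35 in GFP. The route to prostaglandin D2 was thus near the floor in both its synthases and both its receptors. Of 6 genes of transport and breakdown, all 6 were tested, and limma called 0. At an unadjusted limma p under 0.05, where 5.99% of all tested genes were higher, 1 of the 6 was higher. That gene was Slco2a1, the transporter that carries prostaglandins into cells for breakdown. It had 994 and 890.2 normalized counts in SON I and II, against 199 and 525 in GFP I and II, a log2 difference of 1.54 ± 0.46 (SE, limma adjusted p = 0.324). The authors' deposited table does not call it (adjusted p = 0.0585).

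Genes known to induce Ptgs2, or that belong to its inducing signals, mostly lay lower in SON, beside the overlapping levels of Ptgs2. Of 15 listed, 13 were tested and the median log2 difference was -0.57 in limma, where all 13 were negative. DESeq2 on the recovered reads put 3 of them above 0, with log2 differences of 0.33 for Egr1, 0.02 for Rela and 0.0066 for Jun, and in the authors' deposited table Egr1 is at 0.18 and Rela at 0.0075. In 8 of the 13 the groups did not overlap, all lower in SON, where 23.7% of all tested genes were so placed. Limma called 0 of them over all genes. At an unadjusted limma p under 0.05, 7 were lower, where 6.57% of all tested genes were. The authors' deposited table calls 4 lower, where it calls 2.59% of genes. The 13, the 8 and the 7 include Il1rn, which encodes an antagonist of the interleukin-1 receptor and not an inducer. Il1r1, the receptor of interleukin-1, had 2902 and 2162 normalized counts in SON I and II, against 10003 and 5095 in GFP I and II. In the authors' deposited table its log2 difference is -1.46 (adjusted p = 0.00191). Chosen after their values were seen, Il1a, an interleukin-1 ligand, had 45.0 and 54.4 in SON, against 394 and 377 in GFP, and Il6, an inflammatory cytokine, had 1212 and 752 in SON, against 3695 and 2079 in GFP. The authors' deposited table gives adjusted p-values of 5.29e-15 for Il1a and 0.00314 for Il6. Both GFP libraries were above both SON libraries for each of these 3 genes. GFP I was the highest library for all 3, as it was for the sum of the fibroblast markers. Egr1, an immediate early transcription factor, had 2011 and 11130.2 in SON, against 6065 and 4559 in GFP, so the SON libraries lay on either side of GFP. Tnfrsf1a, a receptor of tumour necrosis factor, had 3688 and 4194 in SON, against 4782 and 3866 in GFP.

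**Figure D4:**
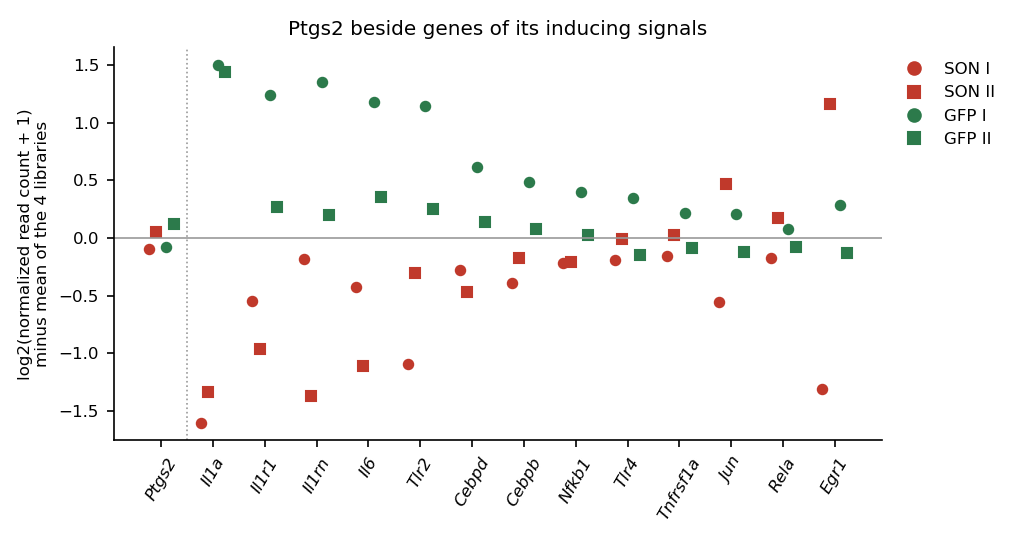
Log2 of the normalized read count + 1 minus its mean over the 4 libraries (vertical axis) for Ptgs2 and the 13 tested genes of its inducing signals; red is SON, green is GFP, circles are library I and squares library II. The 4 points of Ptgs2 lie close to 0, while both GFP points lie above both SON points for Il1a, Il1r1, Il1rn, Il6, Tlr2, Cebpd, Cebpb and Nfkb1. Il1rn encodes an antagonist of the interleukin-1 receptor and not an inducer.

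Genes that respond to cyclic AMP, the messenger of Ptger2 and Ptger4, went both ways. Of 14 listed, 13 were tested, 5 with a positive and 8 with a negative log2 difference, and the median was -0.10. Limma called 0. At an unadjusted limma p under 0.05, 1 was higher and 3 lower, against 5.99% and 6.57% of all tested genes. The authors' deposited table calls 1 higher and 1 lower, where it calls 1.48% and 2.59% of genes. Dusp1, a phosphatase of MAP kinases, had 1940.3 and 2361 in SON, against 1148 and 1115 in GFP, and the authors' deposited table calls it higher (log2 0.90, adjusted p = 0.00663). Rgs2, a regulator of G protein signalling and the gene it calls lower, had 305 and 348 in SON, against 1134 and 596 in GFP (log2 -1.30, adjusted p = 0.00926 in the authors' deposited table). Nr4a1, a nuclear receptor of rapid response, had 2933 and 2672 in SON, against 2968 and 2243 in GFP, and Pde4b, which degrades cyclic AMP, had 1178 and 1066 in SON, against 2300.2 and 1580.0 in GFP.

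Upstream of the cyclooxygenases, 16 other phospholipases and genes of acyl recycling were listed. Of these, 10 were tested, and limma called 0. At an unadjusted limma p under 0.05, 2 were lower, where 6.57% of all tested genes were. The authors' deposited table, which calls 2.59% of genes lower, calls 1 lower here, Pla2g7, which degrades platelet-activating factor. It had 1295 and 2090.3 in SON, against 4150.2 and 3411 in GFP (adjusted p = 0.0116 in the authors' deposited table). Anxa1, which encodes annexin A1 and led the list in level, had 32912 and 31763 in SON, against 27168 and 30882 in GFP, and Acsl4, which activates arachidonic acid, had 3213 and 3567 in SON, against 3819 and 4165 in GFP. In the leukotriene branch, which uses the same arachidonic acid, 9 of 13 genes were tested, limma called 0 (0 at an unadjusted p under 0.05), and the authors' deposited table calls 0. Alox5, the 5-lipoxygenase, had 108 and 420.1 in SON, against 20.9 and 93.3 in GFP, and Mgst2, a glutathione transferase that can make leukotriene C4, had 27.3 and 85.2 in SON, against 101 and 99.9 in GFP. Lta4h, which completes leukotriene B4, had 1906 and 2497 in SON, against 2288 and 2366 in GFP.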

How the data were processed

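RNA was prepared with a TruSeq mRNA kit, per the labels' protocols. The submitters' processing notes name GRCm38 (mm10), the aligners TopHat2 2.0.11 and STAR 2.4.0j, the counters featureCounts and HTSeq 0.5.3p3, Subread, CASAVA 1.8.1 and DESeq2, and do not tie a tool to the gene table. The gene values are a signal deposited by the authors: reads divided by 1 size factor per library, since 100% of values were whole multiples of 1 step within 0.01 reads. The authors' deposited table also holds DESeq2 columns per the file headers: a log2 fold change with its standard error, a score (the Wald statistic) and a p-value with its adjusted form. The repeat table was not used.

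Values + 1 (pseudocount) were put on the log2 scale and tested with limma 3.58.1 in R 4.3.3 (trend, two-sided, Benjamini-Hochberg over all 15283 genes kept by filterByExpr of edgeR 4.0.16). The tests were first run on simulated data with the same spread for all genes and only large changes in well-read genes. That run does not show how they perform at the spread of these libraries. Recovered reads went to edgeR and DESeq2 1.42.0. Groups and numerals came from the titles. Blank gene names were filled from GENCODE M21 by Ensembl identifier, and exon lengths are its merged exons. Intervals cover counting error only. Members and lists were chosen with earlier results of these data known. Besides the members, the rule names tested prostanoid synthases, receptors and transport genes, and in each other list the 3 genes with most reads and any gene limma called. Genes outside it were chosen after their values were seen.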

Additional observations from a re-analysis of the deposited data

How the results depend on the processing

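Limma called 5 genes higher and 3 lower in SON, and no limma or edgeR fit called any of the 9 members. A pseudocount of 0.1 gave 3 higher. With DESeq2 on the recovered reads there were 236 higher and 381 lower, with 1 member higher and 2 lower. Leaving out 1 library, limma gave 0 to 8 higher and 0 to 24 lower. DESeq2 with 1 library left out was chosen after seeing the data. It gave 149 higher and 264 lower without SON I, 322 and 331 without SON II, 20 and 34 without GFP I, and 138 and 308 without GFP II. It called 0 or 1 members higher and 0 to 2 lower. Where an arm was left with 1 library, that library is assumed to vary like the others. The replicate block (libraries of the same numeral paired) called 4 higher and 7 lower and no member. The labels do not say that the numerals pair libraries, and the deviations of same-numbered libraries correlated at 0.22 across genes.

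Of 144 member values under these alternatives, 12 changed sign, all for Ptgs1, Ptgs2 or Ptges. Against -0.03 in limma, Ptgs1 was at 0.018 in edgeR and 0.023 in DESeq2. Without 1 library, limma ranged from -0.473 to 0.408 for Ptgs1, from -0.140 to 0.0579 for Ptgs2 and from -0.964 to 0.298 for Ptges. DESeq2 gave 0.414 without SON I and 0.312 without GFP II for Ptgs1, 0.0584 and 0.0787 for Ptgs2, and 0.327 without SON I for Ptges. The cause was not tested. Depth limits Hpgd and Ptger2, with 4 to 16 reads in a SON library.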
